A study of Mus musculus with 8 samples.

Results

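The haemoglobin and red cell genes were 6 genes whose transcripts gauge the blood left in dissected tissue: *Hba-a1*, *Hba-a2*, *Hbb-b1*, *Hbb-b2*, *Alas2* and *Slc4a1*. They were chosen by name, as the noncontrol probes that carry 1 of these gene names on the array, and each gene had 1 probe, so that 6 of 55681 probes and 6 of 34797 gene names were members. All 6 were well above background on all 8 arrays. The tissue was the olfactory bulb of male C57BL/6J mice aged 56 days, whose dams had been placed in a standard laboratory cage (C) or in environmental enrichment (EE), a roomier cage furnished with a wheel and with objects to explore. After weaning, the offspring stayed in the same kind of housing and were kept for 28 days, from postnatal day 28 to postnatal day 55, in a chamber with clean air (C) or with diesel exhaust (DE) at 90 µg/m3 for 8 hours a day. The first part of a group's name gives its housing and the second its air, so that EE-DE, for example, stands for exposed mice of enriched housing. Equal amounts of RNA were pooled, with 1 bulb from each cage, over 7 mice in C-C, 7 mice in C-DE, 8 mice in EE-C and 9 mice in EE-DE, and each pool was divided over 2 arrays of a one-colour Agilent design. By these methods a group was 1 pool of RNA, its 2 arrays shared that RNA, and no test between groups could be made. The 2 EE-C arrays nevertheless differed by 0.56 (log2) in the haemoglobin median, and whether both were hybridized from the same labelled RNA was not tested.

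Adult haemoglobin is a tetramer of alpha chains, encoded by *Hba-a1* and *Hba-a2*, and beta chains, encoded by the genes of the Hbb locus, each chain with a haem group that binds oxygen. *Alas2* encodes the erythroid form of the enzyme that opens haem synthesis, and *Slc4a1* encodes band 3, the chloride and bicarbonate exchanger of the red cell membrane. Mature red cells have no nucleus, but reticulocytes, the youngest red cells in blood, still carry large amounts of globin RNA, and blood left in the vessels of a tissue is a source of it. Haemoglobin transcripts have also been described in some neurons. In bulk RNA, fewer red cells and less globin RNA in each cell cannot be told apart.

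The probes are shown because they decide which transcript each value counts. The *Hba-a1* probe, in the coding part of the transcript, lies on chromosome 11 at chr11:32183955-32184014 of mouse build mm9, plus strand. The *Hba-a2* probe lies at chr11:32197245-32197304, plus strand, at the 3′ end of the other alpha gene, and only its last 30 bases are printed.
Hba-a1: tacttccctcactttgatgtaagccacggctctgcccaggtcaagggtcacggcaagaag
Hba-a2, last 30 bases: gtctttgaataaagcctgagtaggaagaag
The array annotation assigned each of these 2 probes to the transcripts of both alpha genes, so the 2 genes cannot be told apart here. The 2 probes had no run of bases longer than 6 in common and are separate readings of alpha chain RNA. The beta chain probes and those of *Alas2* and *Slc4a1* follow.
Hbb-b1, first 30 bases: ttttctgctattgtctatgcacaaaggtta
Hbb-b2: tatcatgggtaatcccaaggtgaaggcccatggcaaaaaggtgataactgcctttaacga
Alas2, first 30 bases: tttgggaacatgggaccccaatatgttacc
Slc4a1, first 30 bases: cccacaaggtctaagaaaagcgtttgccat
The *Hbb-b1* probe lies at chr7:110961105-110961164 on the minus strand of mm9, the *Alas2* probe at chrX:147004993-147005052 on the plus strand and the *Slc4a1* probe at chr11:102210256-102210315 on the minus strand. The array annotation gave no mm9 position for the *Hbb-b2* probe. C57BL/6 mice carry the haplotype whose adult beta genes are now called *Hbb-bs* and *Hbb-bt*, while the names *Hbb-b1* and *Hbb-b2* belong to another haplotype. In the later RefSeq annotation, the accession of the *Hbb-b1* probe is *Hbb-bt*, the accession of the *Hbb-b2* probe is still *Hbb-b2*, and the accession of a further probe that the array calls *Beta-s* is *Hbb-bs*. The *Hbb-b2* probe thus carries the name of a beta gene of another haplotype. Which beta transcripts of these mice it read was not tested, and *Hbb-b2* stands below for the value of this probe. No 2 of the 6 member probes shared a run of more than 7 bases.

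To describe the genes, the 250 bases before the start of 3 of them are shown. They are from RefSeq (GRCm38.p6), whose table held 4 of the 6 members, and the capitals mark 4 short motifs, searched on both strands: the GATA motif GATAA, the CACCC box, the CCAAT box and the TATA motif TATAA.
Hba-a1 (chr11:32283422-32283671, plus strand): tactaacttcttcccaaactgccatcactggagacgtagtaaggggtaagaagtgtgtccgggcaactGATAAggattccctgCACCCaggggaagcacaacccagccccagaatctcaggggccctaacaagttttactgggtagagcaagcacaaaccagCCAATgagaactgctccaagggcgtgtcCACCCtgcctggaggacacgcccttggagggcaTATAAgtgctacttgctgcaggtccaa
Hbb-bt (chr7:103813924-103814173, minus strand): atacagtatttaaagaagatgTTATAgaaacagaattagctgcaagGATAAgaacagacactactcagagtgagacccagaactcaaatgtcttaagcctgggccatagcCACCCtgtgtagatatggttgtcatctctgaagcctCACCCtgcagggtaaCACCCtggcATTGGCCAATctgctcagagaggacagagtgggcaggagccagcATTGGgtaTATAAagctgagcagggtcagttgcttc
Alas2 (chrX:150547167-150547416, plus strand): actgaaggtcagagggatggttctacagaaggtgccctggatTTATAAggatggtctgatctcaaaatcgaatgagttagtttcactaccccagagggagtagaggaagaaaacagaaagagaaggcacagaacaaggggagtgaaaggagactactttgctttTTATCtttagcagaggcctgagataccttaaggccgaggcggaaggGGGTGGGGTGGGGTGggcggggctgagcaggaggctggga
GATAA stood in 22.6% of 32851 RefSeq promoters of this length, CACCC in 52.0%, CCAAT in 33.8% and TATAA in 22.8%, and 0.968% held all 4. The promoters of *Hba-a1*, *Hba-a2*, *Hbb-bt* and *Hbb-bs* each held all 4 motifs, and that of *Alas2* held all but the CCAAT box. Those of *Hba-a1* and *Hba-a2* had a run of 247 bases in common. GATA1 and KLF1, which bind GATA and CACCC motifs, are the main transcription factors of red cell precursors. A match of a few letters is a description of the sequence and not a bound site. Any part of these motifs in the values of the arrays was not tested.

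Levels are given on the log2 scale, as the processed signal over the 75th percentile of all noncontrol spots of that array, so that 0 is the 75th percentile, and levels of different probes cannot be set against each other. The 75th percentile lay between 644 and 716 intensity units on the 8 arrays. On the first EE-DE array 56.7% of noncontrol spots were well above a median background of 29 units, against 68.0% to 70.6% of spots and 21 to 24 units on the 7 others. The arrays shared 1 slide and were scanned together, but the pools of each housing had a slide column of their own, and rearing and slide column cannot be told apart. Precision is limited by the number of arrays.

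The alpha chain genes come first. The *Hba-a1* level was 5.30 and 5.51 on the 2 C-C arrays, 5.29 and 5.13 on the C-DE arrays, 5.58 and 5.27 on the EE-C arrays and 5.40 and 5.37 on the EE-DE arrays. The *Hba-a2* level was 7.09 and 7.18 on the C-C arrays, 6.99 and 6.80 on the C-DE arrays, 7.53 and 6.90 on the EE-C arrays and 7.05 and 7.12 on the EE-DE arrays. For both genes both C-DE arrays lay below both C-C arrays, while the 2 EE-C arrays enclosed every other array but the second C-DE array. The *Hba-a2* spot reached 121496 units on the first EE-C array, and no member spot was flagged as saturated.

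The beta chain genes had the same array at the top and the same array at the bottom as the alpha chain genes. The *Hbb-b1* level was 3.96 and 4.33 on the C-C arrays, 4.08 and 3.75 on the C-DE arrays, 4.48 and 3.92 on the EE-C arrays and 4.19 and 4.09 on the EE-DE arrays. The *Hbb-b2* level was 2.02 and 2.28 on the C-C arrays, 2.03 and 1.84 on the C-DE arrays, 2.42 and 1.86 on the EE-C arrays and 2.21 and 2.14 on the EE-DE arrays. For both beta genes the C-DE and C-C arrays overlapped, and the C-DE and EE-DE arrays did not.

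The enzyme and the membrane protein differed in how closely they followed the globins. The *Alas2* level was −0.91 and −0.67 on the C-C arrays, −0.87 and −1.05 on the C-DE arrays, −0.58 and −0.88 on the EE-C arrays and −0.71 and −0.79 on the EE-DE arrays. The *Slc4a1* level was −3.21 and −3.03 on the C-C arrays, −3.40 and −3.37 on the C-DE arrays, −2.58 and −3.17 on the EE-C arrays and −2.66 and −3.23 on the EE-DE arrays. *Slc4a1* was read at 60.8 to 113 intensity units, and its first EE-C and first EE-DE arrays stood apart from the other 6. The first EE-DE array was the one with the highest median background.

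In the order of the pool means, C-DE was the lowest pool for all 6 genes and EE-C the highest for 5, with EE-DE highest for *Hbb-b2*. For *Hba-a1* the means were 5.43 in EE-C, 5.41 in C-C, 5.39 in EE-DE and 5.21 in C-DE. The range of the 4 pool means ran from 0.22 (log2) for *Hba-a1* to 0.51 for *Slc4a1*, that is, from 1.16-fold to 1.43-fold. The largest difference between the 2 arrays of a pool ran from 0.31 for *Hba-a1* and for *Alas2* to 0.64 for *Hba-a2*. For none of the 6 genes was the range of the pools larger than the largest difference within a pool, whereas it was larger for 36.9% of the 21709 probes that passed the filters on signal. The SD over the 8 arrays was 0.14 to 0.31, larger than in 80.8% to 97.3% of those probes, so the members were among the more variable probes of the arrays.

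**Figure D1:**
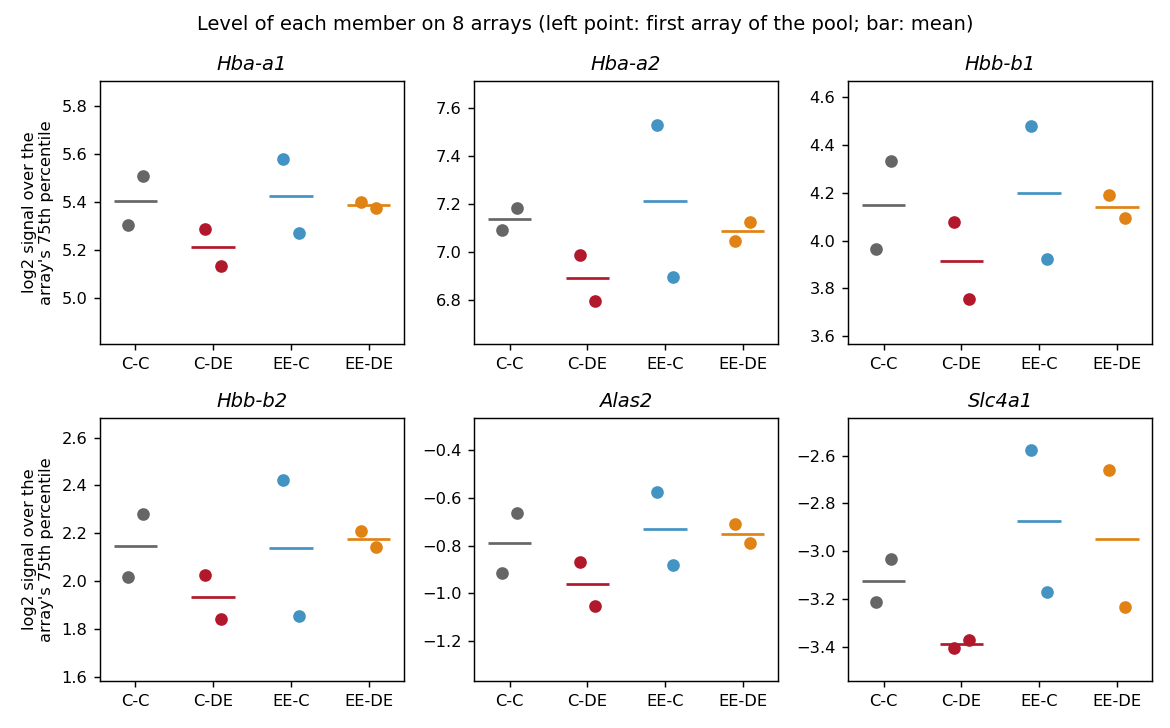
Level of each of the 6 genes on the 8 arrays, as log2 signal over the array's 75th percentile, with 2 points for each pool (first array on the left) and a bar at their mean. The panels differ in their axis range but not in its length, and the first EE-C array was the highest point for all 6 genes while the C-DE mean was the lowest of the 4.

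The exposure in standard cages was the comparison C-DE/C-C. All 6 genes were lower in C-DE, and none by 1.5-fold, the size at which a probe was called changed (0.576% of all probes were called). The 4 haemoglobin probes had a median log2 fold change of −0.22, a ratio of 0.857, and the 4 pairings of a C-DE array with a C-C array gave medians from −0.41 to −0.00. It was −0.09 without the second C-C array. The log2 fold change was −0.20 for *Hba-a1*, −0.25 for *Hba-a2*, −0.23 for *Hbb-b1*, −0.21 for *Hbb-b2*, −0.17 for *Alas2* and −0.27 for *Slc4a1*. Both C-DE arrays lay below both C-C arrays for *Hba-a1*, *Hba-a2* and *Slc4a1*, which is 3 of 6 members, beside 22.4% of all probes that did so. The median over all probes was −0.01.

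The exposure under enrichment was the comparison EE-DE/EE-C, and there the 6 genes were spread around 0. The haemoglobin median was −0.05, with pairings from −0.33 to 0.21. It was 0.20 without the first EE-C array and −0.29 without the second, so its direction depended on which EE-C array was read. *Hba-a2* had the value farthest from 0, at −0.13, and *Hbb-b2* was at 0.04. None of the 6 was called at 1.5-fold (0.944% of all probes were), and for all 6 the EE-DE arrays overlapped the EE-C arrays, while the arrays of these pools did not overlap for 34.2% of all probes. The exposure effect under enrichment minus that in standard cages was 0.12 to 0.25 (log2) for the 6 genes, with a haemoglobin median of 0.17. Without the second EE-C array that median was −0.07 and 1 of the 6 genes lay above 0, and without the first it was 0.44. It was 0.06 without the second C-C array, 0.05 without the second C-DE array, 0.31 without the first C-C array and 0.29 without the first C-DE array. That difference was not tested.

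The 2 housings were compared under each kind of air. In EE-C/C-C the haemoglobin median was 0.04, with pairings from −0.35 to 0.42, and it was −0.23 without the first EE-C array and 0.30 without the second. *Slc4a1* was at 0.25, but at −0.05 without the first EE-C array and 0.54 without the second, and the 5 other genes lay between −0.01 and 0.08. No member was called (0.825% of all probes were), and all 6 overlapped (37.7% of all probes did not). In EE-DE/C-DE all 6 genes were higher in EE-DE, and the haemoglobin median was 0.21, a ratio of 1.16, with pairings from 0.10 to 0.32. With 1 of the 4 arrays left out that median ran from 0.10 to 0.31. The changes were 0.18 for *Hba-a1*, 0.20 for *Hba-a2*, 0.22 for *Hbb-b1*, 0.24 for *Hbb-b2* and 0.21 for *Alas2*, each of them below 1.5-fold (0.636% of all probes were past it). *Slc4a1* was at 0.44, or 1.36-fold, with pairings from 0.14 to 0.74. Both EE-DE arrays lay above both C-DE arrays for all 6 members, beside 21.2% of all probes. Without the second EE-DE array *Slc4a1* reached 0.73, past 1.5-fold, and without the first it was 0.15. C-DE was also the lower pool in C-DE/C-C, and the 2 comparisons share its arrays.

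Enrichment and exposure together were compared with neither in EE-DE/C-C, and no gene lay farther from 0 than *Slc4a1*. The haemoglobin median was −0.01, with pairings from −0.14 to 0.15. *Slc4a1* was at 0.18, but at −0.11 without the first EE-DE array and 0.46 without the second. None was called (0.815% of all probes were), and all 6 overlapped (47.1% of all probes did not).

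**Figure D2:**
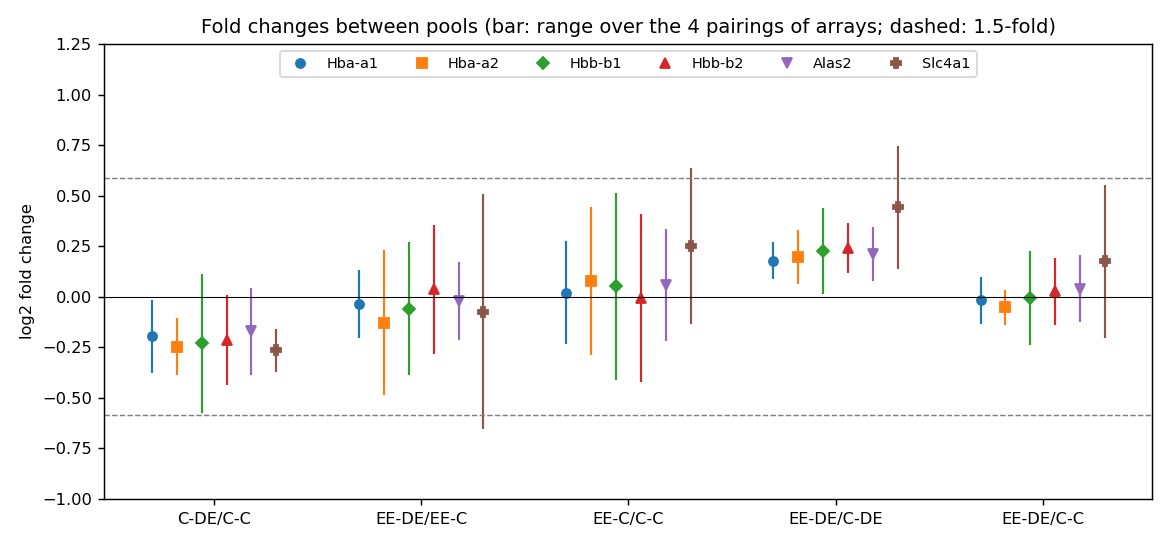
Log2 fold change of the 6 genes in the 5 comparisons of pools. Markers give the difference of the pool means, bars the range over the 4 pairings of arrays, and dashed lines 1.5-fold. All 6 markers lie below 0 in C-DE/C-C and above 0 in EE-DE/C-DE, and none lies beyond a dashed line.

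By the methods the 2 arrays of a pool shared their RNA, yet the red cell genes moved together between them. In C-C all 6 members were lower on the first array, and the haemoglobin median of the first array minus the second was −0.23. In C-DE it was 0.19, with 5 of 6 members higher on the first array. In EE-C it was 0.56, with all 6 higher, and the single genes ran from 0.31 to 0.64. In EE-DE it was 0.05, and *Slc4a1* alone was at 0.57. Over all probes the median of these differences lay between −0.00 and 0.02 in every pool, with an SD of 0.24 in EE-C and of 0.15 to 0.18 in the others. The difference between the EE-C arrays in haemoglobin was thus larger than the haemoglobin change in any comparison of pools.

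**Figure D3:**
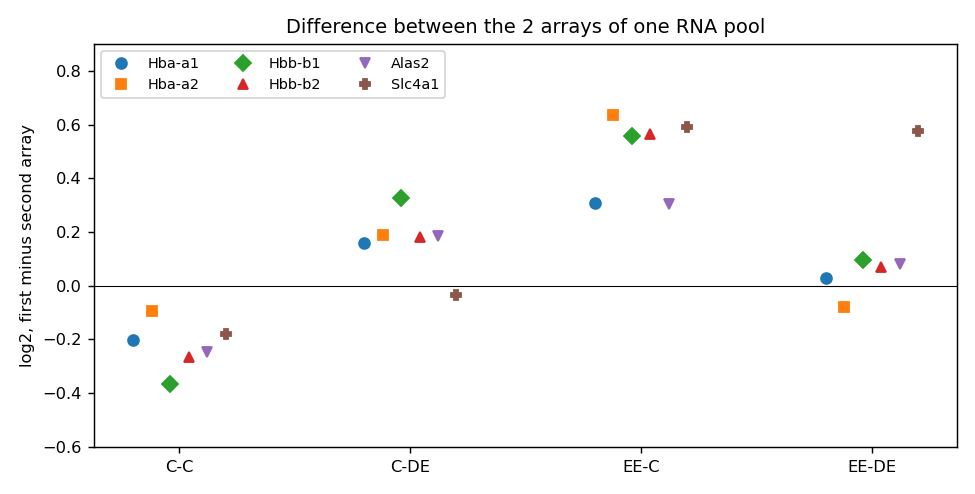
Difference between the first and the second array of each RNA pool (log2) for the 6 genes. All 6 lie below 0 in C-C and above 0 in EE-C, and *Slc4a1* lies apart from the others in EE-DE.

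The position of the spots on the array was read from the neighbouring spots. The median deviation of the passing spots within 15 rows and columns of a member's spot lay between −0.04 and 0.04, except on the first EE-C array, where it was 0.12 around *Hba-a2* and around *Hbb-b1*. With this local deviation taken off, which was chosen after seeing the data, the haemoglobin difference between the EE-C arrays was 0.44, and all 6 members were still higher on the first.

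Across the 8 arrays, which come from 4 pools, the 4 haemoglobin probes followed each other with a Pearson's r of 0.90 to 0.98 over their 6 pairs. *Alas2* had an r of 0.96 with the mean of the haemoglobin probes and *Slc4a1* an r of 0.77. The probe called *Beta-s*, an adult beta gene of these mice by its accession and no member, had an r of 0.96, with levels of 0.85 and 1.04 on the C-C arrays, 0.90 and 0.67 on the C-DE arrays, 1.30 and 0.61 on the EE-C arrays and 1.01 and 0.89 on the EE-DE arrays. Set against C-C, C-DE lay at −0.16, and EE-DE lay 0.16 above C-DE. These correlations describe arrays of the same 4 pools on 1 slide, and the pairs of arrays from the same RNA take part in them.

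Of the globin genes that are not adult red cell globins, the embryonic beta-like *Hbb-bh1* was well above background on all 8 arrays, at 42.6 to 64.3 intensity units, and in C-DE/C-C it lay at 0.09. *Hba-x*, the embryonic zeta chain, and *Hbq1a*, a theta chain, were well above background on none. Of the globins of other tissues, cytoglobin (*Cygb*) passed the filters and lay between −0.16 and 0.11 in the 5 comparisons.

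The 12 listed genes of haem synthesis outside *Alas2*, which most cells use, all passed the filters, and none was called in any comparison. *Fech*, ferrochelatase, which inserts the iron, lay between −0.15 and 0.02. *Abcb10*, a mitochondrial transporter used in red cell precursors, lay between −0.19 and 0.08, and *Tmem14c*, a transporter of haem precursors, between −0.35 and 0.38. Without the first EE-C array *Tmem14c* lay at 0.07 in EE-C/C-C and at −0.04 in EE-DE/EE-C, and without the second it lay at −0.77 and 0.80, both past 1.5-fold. The list's median was −0.02 in C-DE/C-C, close to that of all probes.

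Of 17 listed genes of the red cell membrane and surface, 10 passed the filters, with medians between −0.01 and 0.05 and no call. *Epb4.1*, protein 4.1, lay at 0.35 in EE-DE/C-DE, *Gypc*, glycophorin C, at −0.24 in EE-DE/EE-C, and *Ermap* at 0.15 in C-DE/C-C. *Epb4.2* (protein 4.2), *Rhag* (the Rh-associated glycoprotein) and *Kel*, which are largely restricted to red cells, were well above background on none of the arrays. Of 10 transcription factors and receptors of red cell precursors 6 passed, and *Gata1* and *Klf1* were well above background on none. In that list *Nfe2*, which granulocytes also express, lay at 0.72 in EE-C/C-C, the only call of the list (0.825% of all probes were called there), and at 0.49 without the first EE-C array, while *Tal1* lay between −0.16 and 0.10 and *Zfpm1* between −0.17 and 0.13.

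Of 20 genes of the reticulocyte cytosol and of red cell maturation, 17 passed, and 1 was called (0.433% of all probes fell that far in C-DE/C-C). *Ahsp*, which encodes the stabilizing protein of free alpha chains, changed by −0.80 in C-DE/C-C, with pairings from −1.02 to −0.57, and lay at 0.54 in EE-DE/C-DE. There it was 0.20 without the first EE-DE array and past 1.5-fold at 0.88 without the second and at 0.60 without the second C-DE array. Its levels were −3.68 and −4.01 on the C-C arrays, −4.70 and −4.58 on the C-DE arrays, −2.98 and −4.74 on the EE-C arrays and −3.76 and −4.44 on the EE-DE arrays. The first EE-C array was again the highest and the second the lowest. On every array *Ahsp* was read lower than *Slc4a1*, so nearer to the background, which limits its changes. *Car1*, a red cell carbonic anhydrase, lay at −0.43 for C-DE/C-C and 0.36 for EE-DE/C-DE, and *Hemgn* at 0.07 and −0.01. *Hemgn* was at 0.33 in EE-DE/EE-C, with pairings from 0.32 to 0.35, and at −0.28 in EE-C/C-C, with pairings from −0.44 to −0.11. The median of the 17 genes was 0.02 in C-DE/C-C.

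Among 14 measured genes that handle haem and iron, 12 passed. *Hp*, haptoglobin, the plasma protein that binds free haemoglobin and is also made by maturing neutrophils, changed by −0.62 for C-DE/C-C and by 0.70 for EE-DE/C-DE, and its pairings in C-DE/C-C ran from −1.03 to −0.21. With 1 array left out it lay under 1.5-fold in 2 of 4 cases in each comparison, at −0.36 without the first C-C array, −0.46 without the second C-DE array, 0.43 without the first EE-DE array and 0.54 without the second C-DE array. Over the 5 comparisons *Cp*, ceruloplasmin, lay between −0.19 (EE-DE/EE-C) and a high of 0.26 (EE-C/C-C), and *Slc48a1*, a haem transporter, between −0.23 and 0.25 in the same comparisons.

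The 10 genes whose pattern over the 8 arrays was most like the haemoglobin mean were sought among 1855 probes with an SD of at least 0.2, from which the members and the other globins, *Beta-s* among them, had been left out. They were *Lcn2* with an r of 0.91, *Ltb4r1* with 0.89, *Ltf* with 0.86, *Ifitm6* with 0.86, *1190003J15Rik* with 0.85, *Camp* with 0.85, *Thbs4* with 0.84, *S100a9* with 0.84, *She* with 0.83 and *Olfr1508* with 0.83. *Lcn2*, *Ltf*, *Camp* and *S100a9* encode granule or cytosol proteins of neutrophils and stood on the list of neutrophil and marrow genes. Among the probes searched, so without the globins, an r of 0.9 or more was found for 1, *Lcn2*, or 0.0539%.

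Markers of neutrophils and marrow cells were low in the same pool as the haemoglobin probes. Their list was chosen with earlier results of these data known, so its counts describe these arrays and are no independent support. Of 14 neutrophil and marrow genes 11 passed the filters and *Mmp8* was well above background on no array. All 11 lay below 0 in C-DE/C-C (median −0.59), and 6 of them by at least 1.5-fold (0.433% of all probes fell that far). All 11 were higher in EE-DE/C-DE, with a median of 0.68, and 6 by at least 1.5-fold (0.557% of all probes rose that far). With single arrays left out, which was tried after seeing the data, leaving out the first C-C array left 3 of the 11 at least 1.5-fold lower in C-DE/C-C (median −0.36), and leaving out the second C-DE array left 4 (median −0.33). In EE-DE/C-DE, none of the 11 was past 1.5-fold without the first EE-DE array (median 0.26) and 8 were without the second (median 1.17). *Ltf*, lactoferrin, lay at −0.95 and 0.91 in these comparisons, *S100a8* at −0.89 and 0.83 and *Mpo*, myeloperoxidase of early granulocytes, at −0.59 and 1.00. The list's medians in the 3 comparisons left changed sign with the array that was left out. For EE-DE/EE-C it was −0.31, but −0.92, with 8 of 11 past 1.5-fold, without the second EE-C array, 0.36 without the first EE-C array and 0.09 without the second EE-DE array. For EE-C/C-C it was 0.27, but −0.16 without the first EE-C array and 1.00, with 8 of 11 past 1.5-fold, without the second. In EE-DE/C-C it was 0.07, but −0.11 without the first EE-DE array and 0.32 without the second. The summed level of its 11 genes, in multiples of the array's 75th percentile, was 4.86 to 5.78 on the C-C arrays, 3.15 to 3.54 on the C-DE arrays, 4.09 to 10.3 on the EE-C arrays and 4.27 to 6.49 on the EE-DE arrays. *S100a9* gave 50.1% of this sum, which is a share of signal and not of RNA. The summed level of the 4 haemoglobin probes was 195 to 216 on the C-C arrays, 163 to 187 on the C-DE arrays, 176 to 260 on the EE-C arrays and 197 to 203 on the EE-DE arrays.

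Between the 2 arrays of a pool, the mean level of the neutrophil and marrow genes differed by 0.30 on the C-C arrays, 0.23 on the C-DE arrays, 1.14 on the EE-C arrays and 0.57 on the EE-DE arrays, the first array being the higher in each. The mean of the haemoglobin probes differed by −0.23, 0.21, 0.52 and 0.03 in the same order. The groups of genes thus moved the same way in C-DE and EE-C, and in C-C they moved opposite ways. Their mean levels over the 8 arrays had an r of 0.81. Whether neutrophil or marrow RNA has a part in the haemoglobin values was not tested.

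Of 11 platelet genes 5 passed, with *Gp1ba* and *Gp5* well above background on no array. The platelet median was −0.30 for C-DE/C-C and 0.08 for EE-DE/C-DE, and *Treml1* lay at −0.41, *Gp9* at −0.30 and *Clec1b* at −0.42 in C-DE/C-C. *Clec1b* was at −0.60 in EE-DE/C-C, the only call of that list (0.815% of all probes were called there), at −0.35 without the first EE-DE array and −0.48 without the first C-C array. Of 10 measured lymphocyte genes 4 passed, and none was called. Their median was −0.05 for C-DE/C-C and 0.15 for EE-DE/C-DE. Over the 5 comparisons *Cd3e* lay between 0.05 and 0.37, *Cd79a* between −0.29 and 0.04 and *Cd79b* between −0.17 and 0.25. All 19 genes of brain endothelium and vessel wall passed and none was called. *Vwf* lay between −0.21 and 0.18, *Acta2* between −0.21 and 0.20 and *Myh11* between −0.24 and 0.08. Of 15 olfactory bulb genes 14 passed, none was called, and their medians lay between −0.02 and 0.03, with *Calb2*, *Doc2g* and *Reln* between −0.21 and 0.14.

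Markers of tissue next to the bulb are given here as well. Their lists were chosen with earlier results of these data known, so their counts describe these arrays and are no independent support. Of 16 genes of the olfactory mucosa 15 passed, all 15 lay below 0 in C-DE/C-C (median −0.95), and 10 by at least 1.5-fold, beside the 0.433% of all probes that fell that far. Their median was 1.26 in EE-DE/C-DE. In EE-DE/EE-C it was 0.58, but 0.01 without the second EE-C array, 0.25 without the second EE-DE array and 1.16 without the first EE-C array. *Cyp2g1*, an enzyme of mucosal supporting cells, lay at −1.59 for C-DE/C-C and 2.19 for EE-DE/C-DE, and *Krt8* at −1.40 and 1.73. *Bpifa6* lay at −1.15 and −1.18, with pairings from −3.11 to 0.80 and from −2.89 to 0.53, and it turned to 0.19 without the second C-DE array in the former and to 0.16 without the first in the latter. In EE-DE/EE-C it fell by 2.95, against the direction of the list's median, with pairings from −3.60 to −2.30. The summed level of the 15 genes was 115 to 135 on the C-C arrays, 106 to 118 on the C-DE arrays, 124 to 136 on the EE-C arrays and 131 to 137 on the EE-DE arrays. The probes of *Omp* and *Gng13*, picked out after their values were seen, gave 92.0% of this sum, again a share of signal and not of RNA. The sum of the 13 others was 9.21 to 12.8, 6.17 to 6.47, 7.23 to 12.5 and 10.6 to 15.6 in the same order. Of 10 bone genes 8 passed, with a median of −0.26 for C-DE/C-C and 0.18 for EE-DE/C-DE, and 5 of the 8 were lower and 3 higher in C-DE/C-C. *Bglap*, *Bglap2* and *Acp5* lay there at −0.62, −0.67 and −0.61, the list's 3 calls in that comparison (0.433% of all probes fell that far). The other 2 that were lower lay under 1.5-fold, and the values that follow are those of the 3 called genes. Their pairings ran from −1.75 to 0.52, from −1.79 to 0.45 and from −1.43 to 0.21, and for all 3 genes the second C-DE array lay above the second C-C array. Without the first C-C array they lay at −0.07, −0.22 and −0.10. For EE-C/C-C the 3 genes lay at −0.64, −0.59 and −0.44, and the first 2 were the list's calls there (0.825% of all probes were called). The pairings of the 3 genes ran from −1.57 to 0.28, from −1.37 to 0.20 and from −1.33 to 0.45. Without the first C-C array the 3 genes lay at −0.10, −0.14 and 0.07. In EE-DE/C-DE *Acp5*, at 0.60, was the list's only call (0.636% of all probes were called). It lay between 0.29 and 0.90 with 1 array left out. With the haemoglobin mean, the r over the 8 arrays was 0.61 for the mucosa genes and 0.07 for the bone genes. The part of these tissues in the haemoglobin values was not tested.

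**Figure D4:**
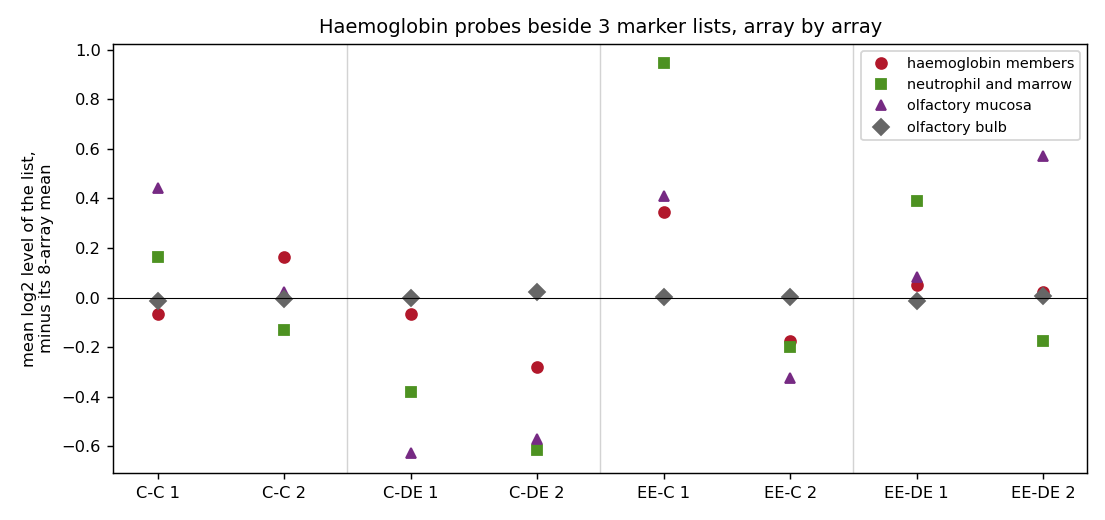
Mean log2 level of the 4 haemoglobin probes and of 3 marker lists on each array, minus the mean over the 8 arrays. The haemoglobin points run from −0.28 on the second C-DE array to 0.34 on the first EE-C array, the neutrophil and marrow points from −0.61 to 0.94 on the same arrays, and the olfactory bulb points stay between −0.01 and 0.02.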

How the data were processed

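Gene expression in the olfactory bulb was measured on 8 one-colour arrays, 2 for each of 4 RNA pools. Scanner intensity values were deposited as Agilent Feature Extraction 10.7.3.1 wrote them, with the background and spatial trend of each array removed and no scaling between arrays, per the file headers. A series table, also deposited, holds log2 values that are centred on each probe's median over the 8 arrays. They lay within 0.02 of the values used here on all 8 arrays for 99.4% of 21709 probes.

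For each array, the processed signal was divided by the 75th percentile of noncontrol spots and put on the log2 scale. Spots were kept when they had an accession and no outlier flag and lay well above background on all 8 arrays. Spots of a probe were averaged, which left 21709 probes, and the 2 arrays of a pool were averaged on the log2 scale. A call was a change of at least 1.5-fold. Ranges are over the 4 pairings of arrays.

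All 6 member genes were named. Of each of 14 marker lists every gene was counted, and up to 3 with the largest change in any comparison were named, with defining genes that were not detected. The 10 most alike genes, members and other globins left out, were named by r. Members and lists were chosen with earlier results of these data known.

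Alternatives were quantile normalization, normexp (offset 50), the series table, the median as the scale, means of linear signals, 2 looser filters on signal, outlier-flagged spots kept, each array left out, 1.5-fold in all 4 pairings and a 2-fold threshold. The calling was tested on simulated data. The software was limma 3.58.1 in R 4.3.3, and numpy 2.4.6, pandas 2.3.3 and matplotlib 3.10.9 in Python 3.11.15. Promoters were matched by symbol or accession to a RefSeq table.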

Additional observations from a re-analysis of the deposited data

How the results depend on the processing

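No paired analysis was possible because the values come from no test and the 2 arrays of a pool share the same RNA. Under 10 settings other than leaving out an array, the haemoglobin median stayed between −0.25 and −0.21 for C-DE/C-C, −0.07 and −0.01 for EE-DE/EE-C, −0.04 and 0.05 for EE-C/C-C, 0.16 and 0.24 for EE-DE/C-DE and −0.09 and 0.01 for EE-DE/C-C. Local spatial correction and cyclic loess, 2 of these, were chosen after seeing the data. The 2 looser filters on signal and the keeping of outlier-flagged spots, also among them, change only which other probes are kept. They could not move a member's value. Leaving out each array of a comparison in turn gave −0.32 to −0.09 for C-DE/C-C, −0.29 to 0.20 for EE-DE/EE-C, −0.23 to 0.30 for EE-C/C-C, 0.10 to 0.31 for EE-DE/C-DE and −0.11 to 0.12 for EE-DE/C-C. It took the number of called members in EE-DE/C-DE from 0 to 1, *Slc4a1* without the second EE-DE array, and left it at 0 in the other 4 comparisons. No member was called under any of the other settings. For 1.5-fold in all 4 pairings, the 2-fold threshold and the filters on spots, that outcome was fixed in advance.

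Of 300 values of single genes under the settings that leave out no array, 3 moved by more than the SD between the duplicate arrays of the pools compared. *Slc4a1* in C-DE/C-C, with an SD of 0.09, went from −0.27 to −0.14 after normexp. *Hba-a2* in EE-DE/C-C, with an SD of 0.06, went from −0.05 to −0.12 after normexp and to 0.07 after quantile normalization. Leaving out an array cannot move a value by more than this SD, by its construction, and it turned the sign of 26 of 120 values of single genes. The cause was not tested. The number of probes called among all probes depended on the filter and on the background correction. In C-DE/C-C it was 125, against 572 with the looser flag, 5173 over all noncontrol probes and, over the same 21709 probes, 38 after normexp. Among the members, signal over background limits *Slc4a1* most, since its spot was read at 60.8 to 113 units. *Ahsp*, *Hp* and *Nfe2*, which are no members, were read lower than *Slc4a1* on every array. *Ltf*, *Mpo* and *Krt8* were read lower than it on both C-DE arrays. The changes of these genes are limited in the same way.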
